A study of Mus musculus with 12 samples.

Results

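Mitotic proliferation genes were followed across lung tumors and adjacent normal lungs of mice that carry a cyclin E transgene, and lungs of non-transgenic mice. The set was fixed by probe set identifier and holds 16 probe sets for 10 genes, of 45101 probe sets on the array, and all 16 were found. The gene names are those given with the list of identifiers. The tables used here pair no other probe set with a gene.

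The 10 genes act in the last part of the cell cycle. Cdk1 is the kinase that drives entry into mitosis, and it is switched on by the cyclins Ccna2, Ccnb1 and Ccnb2. Aurka and Plk1 are kinases that build the spindle and mature the centrosomes. Cdc20 activates the anaphase-promoting complex, the ubiquitin ligase that destroys B-type cyclins and lets sister chromatids separate. Birc5 (survivin) is a subunit of the chromosomal passenger complex, Top2a is the topoisomerase that untangles sister DNA, and Mki67 encodes Ki-67, a coat protein of mitotic chromosomes used in pathology to mark dividing cells. In adult lung most cells are at rest, and the transcripts of these genes are made almost entirely by cells in the division cycle.

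Expression was measured on 12 Affymetrix GeneChip Mouse Genome 430 2.0 arrays, with 4 arrays in each of 3 groups and 1 sample on each array. Lung adenocarcinomas and adjacent histologically normal lung came from FVB mice in which wild-type human cyclin E is driven by the human surfactant protein C promoter, which is active in type II cells of the alveoli. Non-transgenic lung came from FVB mice without the transgene, and all mice were labelled male and were 7 to 11 months old. Tumor and adjacent lung with the same number appear from the labels to come from the same animal, of 4 transgenic mice, although the methods describe independent samples. The labelled tissues were not checked against cell type markers.

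The arrays had medians of 4.10 to 4.13 log2 units in tumors, against 4.17 to 4.38 in adjacent and 4.18 to 4.19 in non-transgenic lungs. Over all probe sets other than controls, tumor 2 stood apart from the other tumors. Its mean correlation with the 8 normal lungs was 0.966, against 0.921 to 0.928 for tumors 1, 3 and 4. Adjacent normal lung 3 was the normal lung least like the others, with a mean correlation of 0.967 against 0.983 to 0.987 for the other 7.

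Promoters of many genes of the late cell cycle hold short elements that control their timing, the cell cycle genes homology region (CHR, letters TTTGAA) and the box bound by the factor NF-Y (letters CCAAT). Stretches of 120 bases before the transcription start of 6 genes are printed to show how these elements are spaced in genes whose transcripts moved together. For Mki67 the stretch was moved to -200 to -81, where its matches lie, while the others run from -120 to -1. The sequences are those of RefSeq on mouse build GRCm38.p6, read 5′ to 3′ on the strand of the gene, and capitals mark both elements on either strand. Positions are counted from the transcription start, which is 0.
Cdk1, chr10:69352913-69353032, minus strand, bases -120 to -1: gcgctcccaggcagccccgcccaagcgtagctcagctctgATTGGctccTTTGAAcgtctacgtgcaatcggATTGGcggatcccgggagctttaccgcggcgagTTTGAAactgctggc
Ccnb2, chr9:70421555-70421674, minus strand, bases -120 to -1: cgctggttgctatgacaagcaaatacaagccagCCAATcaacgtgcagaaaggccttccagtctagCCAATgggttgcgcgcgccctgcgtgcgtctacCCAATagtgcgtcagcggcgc
Ccnb1, chr13:100786487-100786606, minus strand, bases -120 to -1: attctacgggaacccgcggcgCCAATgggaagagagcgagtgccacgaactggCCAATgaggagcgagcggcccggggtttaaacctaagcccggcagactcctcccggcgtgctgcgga
Cdc20, chr4:118437344-118437463, minus strand, bases -120 to -1: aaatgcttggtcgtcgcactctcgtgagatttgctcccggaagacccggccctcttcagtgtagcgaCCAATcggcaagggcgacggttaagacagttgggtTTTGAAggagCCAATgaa
Top2a, chr11:99024190-99024309, minus strand, bases -120 to -1: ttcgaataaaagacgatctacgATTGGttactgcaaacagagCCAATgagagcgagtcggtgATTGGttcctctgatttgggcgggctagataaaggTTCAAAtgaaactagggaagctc
Mki67, chr7:135716460-135716579, minus strand, bases -200 to -81: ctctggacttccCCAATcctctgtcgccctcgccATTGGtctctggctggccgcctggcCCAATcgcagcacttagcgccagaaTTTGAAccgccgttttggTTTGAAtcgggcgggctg

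Promoter windows of 300 bases, with 250 before and 50 after the start, were at hand for 9 of the 10 genes. CHR letters were found in 7 of these 9 (Cdk1, Ccnb2, Aurka, Plk1, Cdc20, Top2a and Mki67), and in 17.9% of all 32851 windows of the same length. NF-Y box letters were found in 8 of the 9, with Birc5 the exception, and in 37.4% of all windows. Both were found in 7 of the 9 and in 6.95% of all windows. In Aurka and Plk1 the CHR letters lay after the start, at 32 and 30, and in Ccnb2 at -167 and 4, outside the stretch printed. Ccnb1 held NF-Y box letters at -99 and -67 and no CHR letters. Both motifs were searched on both strands, and no matches overlapped in these promoters. A match is a match of letters, and binding was not measured.

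**Figure D1:**
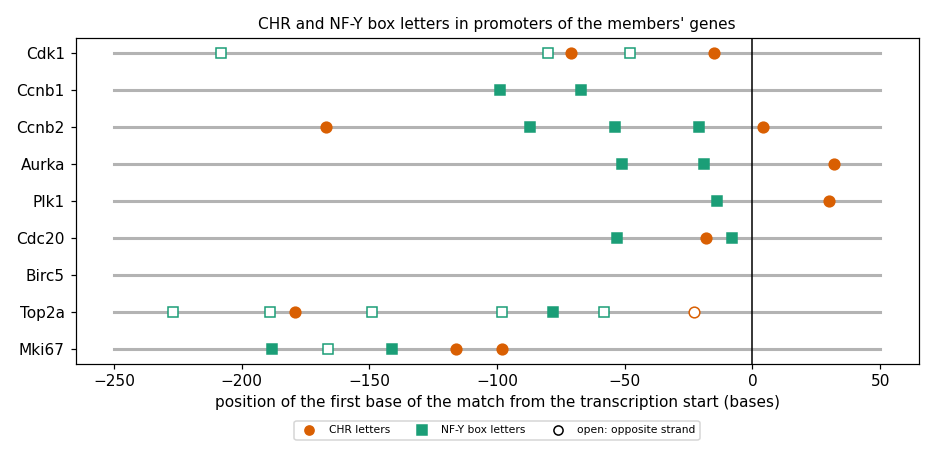
Positions of CHR letters (circles) and NF-Y box letters (squares) in promoters of the 9 genes with a window, from 250 bases before to 50 after the transcription start at 0 (horizontal axis, bases). Filled marks are on the strand of the gene and open marks on the other. Birc5 has neither, and Top2a has the most.

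In 3 of the 4 tumors, nearly the whole mitotic set stood far above normal lung, and in tumor 2 it did not. In 15 of the 16 probe sets tumors 1, 3 and 4 all lay above all 8 normal lungs, which 13.9% of all 45037 probe sets tested did. Their mean stood 3.21 log2 units above that of the lungs in the median probe set. Tumor 2 lay inside the range of the 8 lungs in 13 probe sets, below it in 3 and above it in 0. The share of all probe sets inside that range was not counted. Over all probe sets, too, tumor 2 was nearer the lungs than the other tumors were (mean correlation 0.966 against 0.921 to 0.928). In every one of the 16 tumor 2 was the lowest tumor, as it was in 37.3% of all probe sets. Each sample was a piece of tissue dissected by gross pathology, and more cells in cycle and more transcript per cell cannot be told apart.

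With all arrays in the test, 10 of 16 probe sets, of 9 of the 10 genes, were higher in tumors than in adjacent normal lung at a Benjamini-Hochberg adjusted p under 0.05 in limma and 0 were lower, while 6.91% of all probe sets were higher. The median difference of the 16 was 2.25 log2 units, against -0.01 over all probe sets. Against non-transgenic lung 14 of 16, of all 10 genes, were higher and 0 lower, with 8.93% of all probe sets higher, and the median was 2.51 against 0.05 over all. Both comparisons use the same tumors, and within 1 probe set they have the same standard error. All 4 tumors lay above all 4 adjacent normal lungs in 1 of the 16 probe sets, a condition met by 6.57% of all probe sets, and above all 4 non-transgenic lungs in 1, where 9.65% of all probe sets did.

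**Figure D2:**
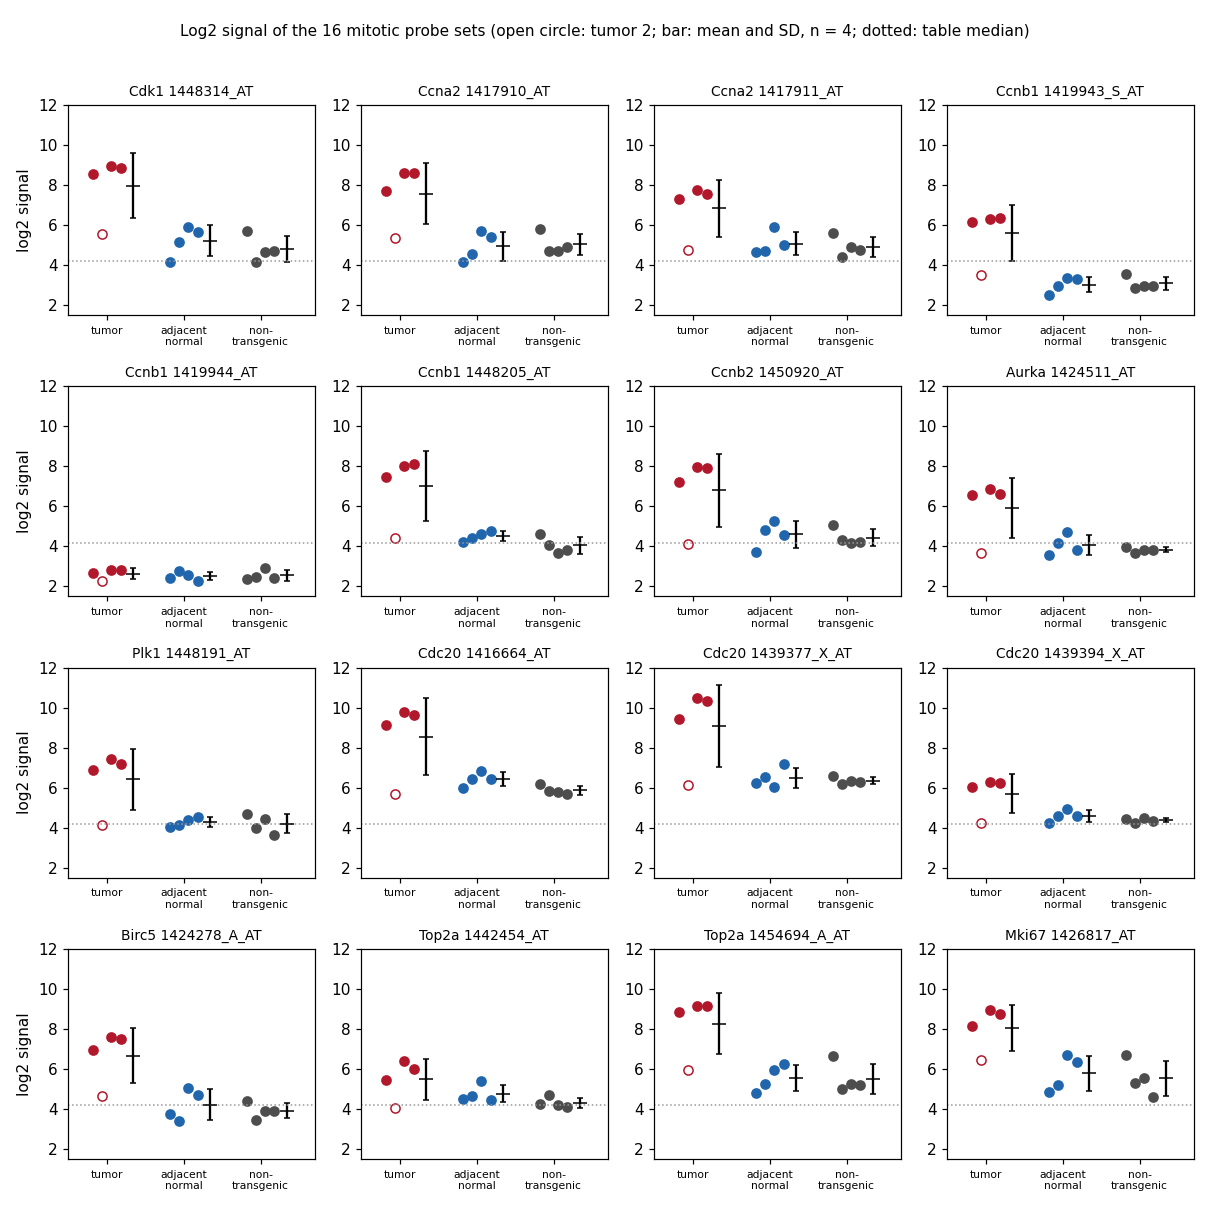
Log2 signal (vertical axes) of the 16 probe sets, 1 panel each, in tumors, adjacent normal lungs and non-transgenic lungs. Points are arrays, the open circle is tumor 2, bars give mean and SD (n = 4), and the dotted line is the median of the whole table, 4.18. Apart from 1419944_AT of Ccnb1, 3 tumors lie above all normal lungs in each panel while the open circle lies among them or below.

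Cdk1 and its cyclins were read by 7 probe sets. The log2 signal of Cdk1 (1448314_AT, gene at chr10:69335146-69352912) was 8.55, 5.56, 8.93 and 8.83 in tumors 1 to 4, 4.15, 5.16, 5.89 and 5.65 in adjacent normal lungs 1 to 4 and 5.72, 4.17, 4.65 and 4.69 in non-transgenic lungs 1 to 4. Tumors 1, 3 and 4 were at least 2.66 log2 units above the highest lung, and tumor 2 was among the lungs. Mean signal was 7.97 ± 1.61 in tumors, 5.21 ± 0.77 in adjacent normal lung and 4.81 ± 0.65 in non-transgenic lung (SD, n = 4 each). Cdk1 rose in tumors by 2.76 log2 units against adjacent normal lung, or 6.75-fold (SE 0.67, limma adjusted p = 0.017), the largest difference of the set, and by 3.16 against non-transgenic lung, or 8.91-fold (adjusted p = 0.0073).

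Ccna2, the A-type cyclin of S phase and early mitosis, showed the same split of the tumors. Its probe set 1417910_AT (gene at chr3:36564865-36573038) had log2 signals of 7.70, 5.37, 8.62 and 8.60 in tumors 1 to 4, 4.14, 4.54, 5.68 and 5.38 in adjacent normal lungs 1 to 4 and 5.79, 4.71, 4.72 and 4.91 in non-transgenic lungs 1 to 4. Adjacent normal lung 1, at 4.14, was the lowest of all arrays, and tumor 2 was above 5 of the 8 lungs. The rise in tumors was 2.64 against adjacent normal lung (SE 0.63, limma adjusted p = 0.015) and 2.54 against non-transgenic lung (adjusted p = 0.015). The other probe set, 1417911_AT, ranged over 4.74 to 7.75 in tumors, 4.67 to 5.89 in adjacent lungs and 4.41 to 5.61 in non-transgenic lung. It differed by 1.76 and 1.91 log2 units, and passed the threshold against non-transgenic lung (adjusted p = 0.035) but not against adjacent normal lung (adjusted p = 0.055). With the replicate number as a block over all 12 arrays, which also ties non-transgenic lungs that share only a number, the adjusted p was 0.031. It was 0.074 with this replicate block over only the tumors and adjacent lungs, and 0.049 with the mouse as a random block. The 2 probe sets correlated by 0.97 over the 12 arrays.

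Ccnb1, the B-type cyclin that partners Cdk1 at mitotic entry, was read by 3 probe sets that did not all move (gene at chr13:100778739-100786486). For 1448205_AT the log2 signals were 7.44, 4.41, 8.04 and 8.12 in tumors 1 to 4, 4.22, 4.41, 4.64 and 4.79 in adjacent normal lungs 1 to 4 and 4.61, 4.06, 3.68 and 3.83 in non-transgenic lungs 1 to 4. The 3 high tumors were 2.66 log2 units or more above the highest lung. The 3 lungs below the table median of 4.18 were all non-transgenic, so the size of the fold against these lungs is uncertain. Probe set 1448205_AT rose in tumors by 2.49 against adjacent normal lung (5.61-fold, SE 0.64, limma adjusted p = 0.022) and by 2.96 against non-transgenic lung (7.76-fold, adjusted p = 0.0081). Probe set 1419943_S_AT, whose suffix marks probes that can match transcripts of more than 1 gene, had log2 signals of 6.17, 3.48, 6.32 and 6.37 in tumors 1 to 4, 2.49, 2.96, 3.35 and 3.28 in adjacent normal lungs 1 to 4 and 3.55, 2.86, 2.96 and 2.95 in non-transgenic lungs 1 to 4. Here alone all 4 tumors lay above all 4 adjacent normal lungs, tumor 2 at 3.48 just over the 3.35 of adjacent normal lung 3. All 8 lungs and tumor 2 were below the table median of 4.18, where a signal above background was not established, and the rise of 2.57 log2 units (SE 0.53, limma adjusted p = 0.0072) is therefore of uncertain size. Probe set 1419944_AT stayed at 2.27 to 2.84 in tumors, 2.28 to 2.79 in adjacent lungs and 2.35 to 2.94 in non-transgenic lung. It was below the table median on all 12 arrays, and differed by 0.12 log2 units against adjacent normal lung (95% interval -0.25 to 0.49, adjusted p = 0.71) and 0.09 against non-transgenic lung (adjusted p = 0.80).

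Ccnb2, the other B-type cyclin of dividing cells, had a single probe set (1450920_AT, gene at chr9:70407689-70421554). Its log2 signals were 7.20, 4.14, 7.98 and 7.90 in tumors 1 to 4, 3.72, 4.81, 5.29 and 4.56 in adjacent normal lungs 1 to 4 and 5.06, 4.31, 4.16 and 4.23 in non-transgenic lungs 1 to 4. Tumor 2 was lower than every lung but adjacent normal lung 1. Against non-transgenic lung Ccnb2 rose in tumors by 2.36 log2 units (5.15-fold, SE 0.70, limma adjusted p = 0.035). Against adjacent normal lung the difference of 2.21 just missed the threshold (SE 0.70, limma adjusted p = 0.051). It passed with the mouse as a random block (adjusted p = 0.046) but not with the replicate block (0.061 over all 12 arrays and 0.12 over the tumors and adjacent lungs).

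The mitotic kinases Aurka and Plk1 had 1 probe set each. Aurka (1424511_AT, gene at chr2:172356190-172370886) had log2 signals of 6.58, 3.65, 6.84 and 6.59 in tumors 1 to 4, 3.55, 4.15, 4.71 and 3.84 in adjacent normal lungs 1 to 4 and 3.99, 3.67, 3.82 and 3.84 in non-transgenic lungs 1 to 4. Tumor 2 was again below every lung but 1, and 7 of the 8 lungs and tumor 2 were below the table median, so that the size of its folds is uncertain too. The rise in tumors was 1.86 against adjacent normal lung (3.62-fold, SE 0.57, limma adjusted p = 0.045) and 2.09 against non-transgenic lung (4.25-fold, adjusted p = 0.024). Plk1 (1448191_AT, gene at chr7:122159435-122169884) had log2 signals of 6.89, 4.13, 7.43 and 7.17 in tumors 1 to 4, 4.02, 4.11, 4.40 and 4.55 in adjacent normal lungs 1 to 4 and 4.71, 4.00, 4.45 and 3.63 in non-transgenic lungs 1 to 4. Tumor 2 lay in the middle of the lungs, 4 of which were below the table median. Plk1 rose in tumors by 2.14 log2 units (4.40-fold, SE 0.58, limma adjusted p = 0.026) and 2.21 (4.63-fold, adjusted p = 0.020) against the same 2 kinds of lung.

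Cdc20, the anaphase activator, was read by 3 probe sets (gene at chr4:118432901-118437343). For 1416664_AT the log2 signals were 9.13, 5.67, 9.77 and 9.61 in tumors 1 to 4, 5.97, 6.42, 6.81 and 6.45 in adjacent normal lungs 1 to 4 and 6.19, 5.81, 5.78 and 5.70 in non-transgenic lungs 1 to 4. Tumor 2 was below all 8 lungs here, 3.46 log2 units under the next tumor. For 1439377_X_AT they were 9.41, 6.11, 10.49 and 10.35 in tumors 1 to 4, 6.22, 6.52, 6.05 and 7.19 in adjacent normal lungs 1 to 4 and 6.58, 6.19, 6.34 and 6.29 in non-transgenic lungs 1 to 4. The X in this name marks probes that may also bind other transcripts, and in this probe set adjacent normal lung 3 was the lowest lung although it was the highest in 1416664_AT. The third, 1439394_X_AT, spanned a narrower range, 4.25 to 6.27 in tumors, 4.23 to 4.93 in adjacent lungs and 4.25 to 4.48 in non-transgenic lung. Against non-transgenic lung all 3 rose in tumors, by 2.67, 2.74 and 1.33 log2 units (limma adjusted p = 0.020, 0.024 and 0.026). Against adjacent normal lung 1439377_X_AT rose by 2.59 (6.03-fold, SE 0.75, adjusted p = 0.035), while 1416664_AT and 1439394_X_AT differed by 2.13 and 1.12 and did not pass (adjusted p = 0.060 and 0.059). Over the 12 arrays the 3 probe sets correlated by 0.96 to 0.99.

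Birc5 of the chromosomal passenger complex (1424278_A_AT, gene at chr11:117849237-117855743) had log2 signals of 6.93, 4.66, 7.61 and 7.48 in tumors 1 to 4, 3.77, 3.38, 5.06 and 4.67 in adjacent normal lungs 1 to 4 and 4.41, 3.46, 3.89 and 3.92 in non-transgenic lungs 1 to 4. It was the probe set in which all 4 tumors lay above all 4 non-transgenic lungs, although tumor 2 was within the adjacent normal lungs. With 5 of the 8 lungs below the table median, the size of its folds is uncertain as well. It rose in tumors by 2.45 log2 units against adjacent normal lung (5.46-fold, SE 0.58, limma adjusted p = 0.014) and by 2.75 against non-transgenic lung (6.73-fold, adjusted p = 0.0066), the lowest p of the set in that comparison.

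Top2a was read by a probe set with a large difference and by another with a small one (gene at chr11:98992947-99024199). For 1454694_A_AT the log2 signals were 8.82, 5.96, 9.14 and 9.15 in tumors 1 to 4, 4.81, 5.23, 5.96 and 6.25 in adjacent normal lungs 1 to 4 and 6.62, 4.98, 5.24 and 5.22 in non-transgenic lungs 1 to 4. Non-transgenic lung 1 was the highest lung, above tumor 2. The rise in tumors was 2.71 against adjacent normal lung (6.53-fold, SE 0.65, limma adjusted p = 0.016) and 2.75 against non-transgenic lung (6.74-fold, adjusted p = 0.012). For 1442454_AT they were 5.47, 4.06, 6.42 and 5.98 in tumors 1 to 4, 4.52, 4.67, 5.42 and 4.47 in adjacent normal lungs 1 to 4 and 4.26, 4.68, 4.21 and 4.09 in non-transgenic lungs 1 to 4. Tumor 2 was the lowest of all arrays, and tumor 1 was 0.05 log2 units above adjacent normal lung 3. The differences of 0.71 and 1.17 did not pass (limma adjusted p = 0.29 and 0.068). The correlation of the 2 probe sets over the 12 arrays was 0.81.

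Mki67, the clinical marker of dividing cells (1426817_AT, gene at chr7:135689784-135716450), had log2 signals of 8.14, 6.43, 8.94 and 8.73 in tumors 1 to 4, 4.85, 5.21, 6.69 and 6.36 in adjacent normal lungs 1 to 4 and 6.70, 5.30, 5.55 and 4.60 in non-transgenic lungs 1 to 4. Its lungs were spread more widely than those of the other genes (SD 0.89 in adjacent normal and 0.87 in non-transgenic lung, n = 4 each), with non-transgenic lung 1 and adjacent normal lung 3 nearly level and both above tumor 2. Mki67 rose in tumors by 2.29 log2 units against adjacent normal lung (4.88-fold, SE 0.60, limma adjusted p = 0.023) and by 2.52 against non-transgenic lung (5.75-fold, adjusted p = 0.013).

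The number of calls turned on single arrays. Tumors 1, 3 and 4 were left out 1 at a time. Against adjacent normal lung, 4, 3 and 3 of the 16 were then higher, where 3.99%, 3.16% and 3.34% of all probe sets were. Without adjacent normal lung 1 they were 2 of the 16, or 12.5%, against 3.38% of all probe sets, and without adjacent normal lung 2 they were 5 (4.04% of all). Without adjacent normal lung 3 their number stayed at 10 (6.29% of all). Against non-transgenic lung, 7 were higher with tumor 1, 3 or 4 left out alone, where 4.94% to 5.51% of all probe sets were. Without non-transgenic lungs 2, 3 and 4 the numbers were 8, 9 and 7, with 5.62% to 5.77% of all. The exact permutation test of 4 arrays against 4, two-sided, gave its smallest possible p of 0.029 for 1 probe set in each comparison, and in the other 15 tumor 2 did not lie above all 4 lungs.

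Without tumor 2, 15 of 16 probe sets were higher than in adjacent normal lung (13.4% of all probe sets) and 15 of 16 than in non-transgenic lung (14.9%), with 1419944_AT the exception both times. Tumor 2 was known to stand apart when this comparison was made, and the p-values take no account of that choice. As tumor 2 was the lowest tumor in all 16, its removal could only raise the differences. Cdk1 was then 11.8-fold higher than in adjacent and 15.5-fold higher than in non-transgenic lung (log2 3.56 and 3.96, SE 0.40). The folds that follow are in the same order, adjacent and then non-transgenic lung. Among the cyclins they were 10.3 and 9.66 for 1417910_AT and 5.51 and 6.12 for 1417911_AT of Ccna2, 10.2 and 14.1 for 1448205_AT and 9.63 and 9.21 for 1419943_S_AT of Ccnb1, and 8.58 and 9.53 for Ccnb2. The cyclins that had missed the threshold against adjacent normal lung, 1417911_AT and Ccnb2, passed it without tumor 2 (limma adjusted p = 7.8e-05 and 2.2e-05). The kinases were 6.11-fold and 7.17-fold higher for Aurka and 7.44-fold and 7.84-fold higher for Plk1. The 3 probe sets of Cdc20 gave 8.48 and 12.4, 12.0 and 13.3, and 3.04 and 3.52. Birc5 was 8.68-fold and 10.7-fold higher, Mki67 7.12-fold and 8.39-fold, and Top2a 11.1-fold and 11.5-fold in 1454694_A_AT but 2.28-fold and 3.13-fold in 1442454_AT. Low signals in the lungs leave the size of the folds uncertain for 1448205_AT, 1419943_S_AT, Aurka, Birc5 and Plk1. The median log2 difference over the 16 was 3.09, or 3.23 against non-transgenic lung.

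**Figure D3:**
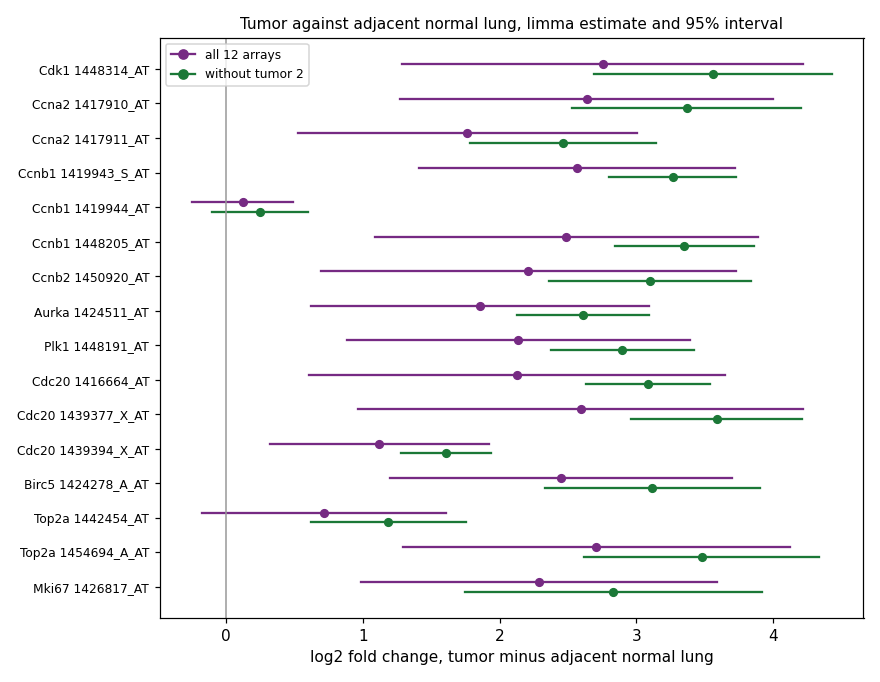
Log2 fold change of tumor against adjacent normal lung (horizontal axis) for each of the 16 probe sets, as limma estimates (points) with 95% intervals (lines), from all 12 arrays and without tumor 2. With all arrays the intervals of 1419944_AT and 1442454_AT include 0, and without tumor 2 that of 1419944_AT does.

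Averaged over the 16 probe sets, and set against the mean of the non-transgenic lungs, tumors 1, 2, 3 and 4 were at 2.60, 0.13, 3.16 and 3.04 log2 units. The 8 normal lungs were at -0.31 to 0.66, so that tumor 2 fell among them. Against the mean of all 8 lungs, tumor 2 was higher in 7 probe sets and not in 9, by -0.48 to 0.77 log2 units, with Mki67 the highest and 1442454_AT of Top2a the lowest. The other 3 tumors were close to each other, and tumor 1 was the lowest of them in all 16 probe sets, by 0.14 to 1.00 log2 units from the mean of tumors 3 and 4. How often this held over all probe sets was not counted, and the 16 are not independent. As a measure of RNA quality, control probe sets at the 3′ end of beta-actin and Gapdh exceeded those at the 5′ end by 0.61 log2 units in tumor 2, by 0.30 to 0.56 in the other tumors and by 0.35 to 0.57 in the lungs. Its part in the result was not tested.

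**Figure D4:**
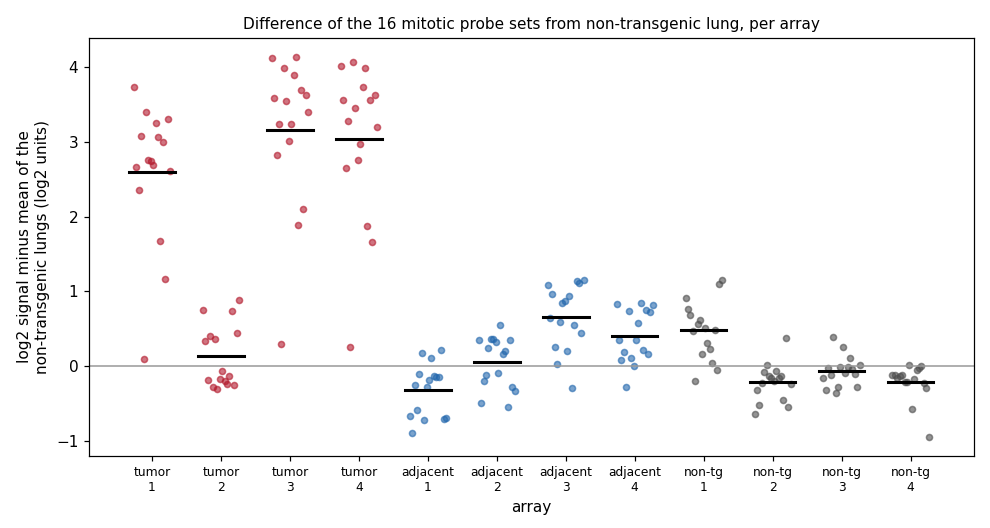
Log2 signal minus the mean of the 4 non-transgenic lungs (vertical axis) for each array (horizontal axis), with the 16 probe sets as points and their mean as a line. Tumors 1, 3 and 4 have means of 2.60 to 3.16, tumor 2 is at 0.13, and the 8 normal lungs lie between -0.31 and 0.66.

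Between adjacent normal lung, which carries the cyclin E transgene, and non-transgenic lung, 0 of the 16 probe sets passed limma's test after Benjamini-Hochberg adjustment at 0.05, and 0% of all 45037 did. Before adjustment 0 of the 16, and 1979 of all probe sets, had p under 0.05. Without tumor 2, whose spread enters the fit of all groups, the adjusted counts were again 0, and 1 of the 16 and 2727 of all probe sets had an unadjusted p under 0.05. The differences ran from -0.10 to 0.55 log2 units with a median of 0.18, and 13 of 16 were above 0, while the median of all probe sets was 0.05. The share of all probe sets above 0 was not counted and the 16 are not independent, so the 13 cannot be read as a trait of the set. Of the 16, Cdc20 1416664_AT had the largest difference, 0.55 log2 units with a 95% interval of -0.97 to 2.07. Without tumor 2 its interval was 0.13 to 0.97 (SE 0.19 in place of 0.70, limma unadjusted p = 0.015, adjusted p = 0.78), and it was the probe set that passed before adjustment. Cdk1 differed by 0.40, with an interval of -1.06 to 1.87, or -0.40 to 1.21 without tumor 2. In 0 of the 16 probe sets did the 4 adjacent normal lungs all lie above, or all below, the 4 non-transgenic lungs. The share of all probe sets that did so was not counted, so this cannot be read as a trait of the 16. The median without adjacent normal lung 3 was 0.02, and it was 0.37 without non-transgenic lung 1.

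Single normal lungs differed by more than the means of their groups did, although single values vary more than means of 4 in any case. Averaged over the set, adjacent normal lung 3, non-transgenic lung 1 and adjacent normal lung 4 were at 0.66, 0.49 and 0.41 log2 units from the non-transgenic mean, and adjacent normal lung 1 was at -0.31. The highest lung was adjacent normal lung 3 in 8 probe sets, non-transgenic lung 1 in 5, adjacent normal lung 4 in 2 and non-transgenic lung 3 in 1. Adjacent normal lung 1 was the lowest lung in 7. Shares of all probe sets were not counted for these ranks. Adjacent normal lung 3 also had the highest median over its whole array, 4.38, against 4.17 to 4.21 in the other lungs. How much of its 0.66 this shift makes up was not tested. Leaving out 1419944_AT, the other 15 probe sets form 105 pairs, and their correlations over the 8 lungs had a median of 0.66 (range -0.34 to 0.97), with 102 above 0. The median was 0.61 without adjacent normal lung 3, 0.70 without non-transgenic lung 1 and 0.58 without both. All pairs share the same arrays and their normalization, and probe sets of the same gene share their transcript. The pairs with 1419944_AT had a median of -0.18 over the 8 lungs. Correlations among other probe sets over the lungs were not computed, so the 102 of 105 cannot be read as a trait of the set.

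Over all 12 arrays the same 105 pairs correlated by 0.81 to 0.99, with a median of 0.97, or 0.98 without tumor 2 and adjacent normal lung 3. Of 19520 other probe sets with a range of at least 1 log2 unit, 501 correlated with the mean profile of the 16 by 0.95 or more and 80 by 0.98 or more. These numbers were 686 and 128 without tumor 2, 721 and 141 without adjacent normal lung 3, and 996 and 236 without both, settings chosen after seeing the data. The closest were 1448441_AT (r = 0.997 over 12 arrays) and 1436345_AT (r = 0.994), which the tables used here do not pair with genes.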

How the data were processed

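Gene expression was measured on 12 Affymetrix Mouse Genome 430 2.0 arrays. For each array the authors deposited log2 signals of all probe sets (1.50 to 14.51), already background corrected and normalized. The methods name Robust Multichip Average with GeneSifter, the submitters' processing notes name GCRMA, so the algorithm is uncertain. GCRMA can compress low signals. No detection calls were at hand. Groups and replicate numbers came from the sample titles.

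All 45037 probe sets other than the 64 controls were fitted with limma 3.58.1 (R 4.3.3), lmFit and eBayes, 3 groups in 1 fit, no block and Benjamini-Hochberg adjustment at 0.05. No filter on low values was used, because it would admit members through the group where they are high. The methods' analysis of variance was an alternative, with the filters at the table median (4.18) and 75th percentile (6.47), a floor at the 25th percentile (2.81), quantile normalization, median centring, intensity trend, the replicate block, a random block for mouse, and arrays left out. The number of arrays limits the precision, and p-values take arrays as independent. Deviations of tumor and adjacent lung with the same number correlated by -0.03, 0.08, 0.07 and 0.10 over all probe sets, and the pairing comes from tissue codes and the design text in the labels. The highest correlation between 2 arrays was 0.9935. All member probe sets are named. The members and lists were chosen with earlier results of these data known. Further lists of mitotic, replication and cell type genes were not analysed here, since the tables used here pair only the member probe sets with genes. Promoters came from RefSeq (GRCm38.p6).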

Additional observations from a re-analysis of the deposited data

Results flagged for a closer look

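Of 48 sets of 4 arrays (16 probe sets in 3 groups), 11 failed Dixon's test for an extreme value at the 95% level, and about 1 set in 20 would by chance. In 8 of them this was tumor 2, which was below the other tumors. Its log2 signal was 5.56 in Cdk1 (1448314_AT), where the next tumor was at 8.55, and 4.74 in 1417911_AT of Ccna2 (next 7.28). It was 3.48 in 1419943_S_AT of Ccnb1 (next 6.17), 3.65 in Aurka (next 6.58) and 4.13 in Plk1 (next 6.89). In Cdc20 it was 5.67 in 1416664_AT (next 9.13) and 4.25 in 1439394_X_AT (next 6.06), and in 1454694_A_AT of Top2a it was 5.96 (next 8.82). In the other 3 sets non-transgenic lung 1 was above its group, at 3.55 in 1419943_S_AT of Ccnb1 (next 2.96), 5.06 in Ccnb2 (next 4.31) and 6.62 in 1454694_A_AT of Top2a (next 5.24). These sets share arrays and are not independent.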

How the results depend on the processing

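Over the 2 comparisons with tumors, 707 of 708 recomputed differences of single probe sets kept their sign. The exception was 1419944_AT of Ccnb1 against non-transgenic lung, at -0.024 log2 units with a floor at the 25th percentile. This floor, 2.81, replaced every value of both groups but those of tumor 3 (2.84) and non-transgenic lung 3 (2.94). Many of the 708 could not turn. Filters, intensity trend, blocks and the use of only the 8 arrays compared leave a difference as it is. Removal of an array of the group not compared does so too. Shares in brackets are the probe sets called higher, of all those tested under that setting. The count of members called against adjacent normal lung, 10 (6.91%), was 4 with the filter at the 75th percentile (15.3%, all 4 of the members it tests), 5 with the floor (5.24%), 3 with only the 8 arrays compared, which have fewer samples (2.95%), 5 with these and the replicate block (2.03%), 1 by the exact permutation test without adjustment (6.57%), and 2 (without adjacent normal lung 1) to 15 (without tumor 2) with 1 array left out. Against non-transgenic lung the 14 (8.93%) became 4 (15.6%), 9 (7.41%), 7 (6.37%), 5 (3.21%) and 1 (9.65%) under the same settings, and 7 to 15 with 1 array left out. The filter at the table median gave 13 of 14 (13.2%) and 14 of 14 (15.6%), quantile normalization 12 (7.96%) and 14 (9.96%), median centring 14 (12.0%) and 15 (12.7%), and removal of tumor 2 with adjacent normal lung 3 gave 15 (15.2%) and 15 (17.6%). With centring 5420 of 8622 calls against adjacent normal lung were higher, against 3111 of 7046 as deposited. With the replicate block over 12 arrays the counts were 11 (6.10%) and 14 (7.99%), and no call but that of 1417911_AT changed. With the mouse as a random block they were 12 (7.40%) and 14 (8.96%). Across the 3 groups 12 members passed limma's moderated F-test (16% of all probe sets). The methods' analysis of variance passed 14 (26.9%), and 2 of them after adjustment (10.5%). Between the 2 kinds of normal lung 0 were called under every alternative run. Low signals in 1419944_AT, and in the lungs for 1419943_S_AT, Aurka, Birc5 and Plk1, limit what can be said of their changes.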
